A study of Mus musculus with 12 samples.

Results

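A set of 7 genes known for their role in antibody-secreting plasma cells were followed through mouse lung RNA sequencing libraries: Jchain, Mzb1, Tnfrsf17, Prdm1, Irf4, Sdc1 and Pou2af1. They were taken by symbol from the deposited gene table, where 7 of 7 were found among 19726 genes, and 7 of 7 were among the 15863 genes with enough counts to be tested. The question put to them was whether the transcripts of antibody-secreting cells held their level in lungs where those of B cells were lower.

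The libraries came from lungs of mice whose strain the labels give as IRC, in 4 groups of 3. Control animals were left untreated, and the AOS group was dosed with alginate oligosaccharides, short sugar chains cut from the alginate of brown seaweed, at 10 mg/kg for 5 weeks. Busulfan is an alkylating drug that depletes dividing cells of the bone marrow, and the busulfan group was given 40 mg/kg of it as a single dose, and the busulfan + AOS group received the same single dose followed by 10 mg/kg AOS for 5 weeks. The labels state no age, no sex, no time from busulfan to tissue collection and no transgene, and do not say whether the 3 libraries of a group came from separate animals, so p-values measure the spread between these libraries alone. The tissue field reads "Cells" while titles and protocol name lung, and the transcripts of lung were abundant: 13 alveolar epithelial markers summed to between 20200 and 28900 CPM (counts scaled to library size) over the 12 libraries. The airway gene Scgb1a1 alone took 1.59 to 5.68% of all counts. The busulfan group is called BA0 in the titles and B0 in the design text, and these were taken as the same group.

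A B cell that is activated by antigen can turn into a plasma cell, which stops displaying its antigen receptor and secretes it as antibody. In that step the transcription factors Irf4, Prdm1 and Xbp1 shut down the B cell programme under Pax5 and enlarge the endoplasmic reticulum, where antibody is folded. In the lung, plasma cells lie beneath the airway lining and make IgA, which is joined into dimers by the J chain and carried into the airway by the receptor that Pigr encodes. Of the 7 genes, Jchain is a product of secretion, Mzb1 a helper of folding, Tnfrsf17 a survival receptor, Prdm1 and Irf4 regulators, Sdc1 a surface proteoglycan, and Pou2af1 a coactivator that B cells and plasma cells share. None of the 7 is made by plasma cells alone. The immunoglobulin constant region genes themselves were not analysed here, so antibody transcripts do not enter these results.

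Jchain and Pou2af1 stood at opposite ends of the results, and the 250 bases before the transcription start of each are shown for that reason, from RefSeq on GRCm38.p6 (the assembly that mm10 names). The Jchain stretch is chr5:88527898-88528147 on the minus strand and the Pou2af1 stretch chr9:51213440-51213689 on the plus strand, both written 5′ to 3′ along the gene. Capitals mark a match to TGACGTGG, the element that Xbp1 and Atf6 bind in genes of the unfolded protein response.
Jchain: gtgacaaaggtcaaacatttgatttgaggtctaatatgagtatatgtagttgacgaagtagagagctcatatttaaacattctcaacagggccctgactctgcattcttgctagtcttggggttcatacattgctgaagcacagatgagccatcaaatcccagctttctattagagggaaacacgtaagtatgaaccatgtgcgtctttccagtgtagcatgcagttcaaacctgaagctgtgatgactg
Pou2af1: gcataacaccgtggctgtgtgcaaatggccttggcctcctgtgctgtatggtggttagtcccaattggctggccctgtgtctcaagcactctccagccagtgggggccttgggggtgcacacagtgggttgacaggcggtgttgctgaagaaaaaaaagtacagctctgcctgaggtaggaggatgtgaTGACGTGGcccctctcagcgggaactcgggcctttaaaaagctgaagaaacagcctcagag
The Pou2af1 stretch held this element 61 to 54 bases before the start, and 185 of 32851 mouse promoter stretches of the same length (0.563%) held it on either strand. The octamer ATGCAAAT is the site at which Pou2af1 joins Oct factors. It was found in 1.6% of all stretches and in 0 of the 6 members that had a sequence, which Mzb1 did not. The ETS-IRF composite element, bound by Irf4 with a partner of the ETS family, was found in 2.3% of all stretches and in 0 of these 6. The core of the interferon-stimulated response element, which IRF factors and Prdm1 recognise, was found in 2.98% and in the Tnfrsf17 stretch, on the reverse strand 101 to 92 bases before the start used. That stretch, chr16:11313559-11313808, lies inside the annotated gene, as does that of Prdm1 (chr10:44458749-44458998), so neither precedes the outermost annotated start. The bases after the start were found in an annotated transcript of the gene for 3 of the 6 stretches. Which 3 is not stated here, so Jchain or Pou2af1 may be among those not matched. The stretches of Jchain and Pou2af1 do end directly before the outermost RefSeq start of the gene. Both strands were searched for each motif, the motifs were chosen with these sequences in view, and a match describes letters and not a bound site.

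Compared by FPKM, which corrects for transcript length, the 7 genes spanned a wide range of levels. Sdc1 was highest at 62.8 ± 2.53 FPKM (SD, n = 12) and Jchain followed at 26.7 ± 7.51. Mzb1 stood at 6.39 ± 1.37, Pou2af1 at 3.63 ± 1.96, Prdm1 at 2.66 ± 0.693 and Irf4 at 1.86 ± 0.579. Tnfrsf17 was lowest at 0.727 ± 0.378 FPKM. The lowest library of Sdc1 (58.5 FPKM) lay above the highest of Jchain (37.3), and the lowest of Jchain (16.8) above the highest of Mzb1 (8.8), whereas each further neighbour in this order overlapped the next. In counts, which limit precision when low, Tnfrsf17 had 3 to 17 per library, Irf4 59 to 219 and Mzb1 63 to 117. Pou2af1 had 64 to 296, Prdm1 141 to 349, Jchain 536 to 1255 and Sdc1 2809 to 3169. The spread over the 12 libraries also differed: the coefficient of variation of CPM was 4.98% for Sdc1 and 52.9% for Pou2af1.

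**Figure D1:**
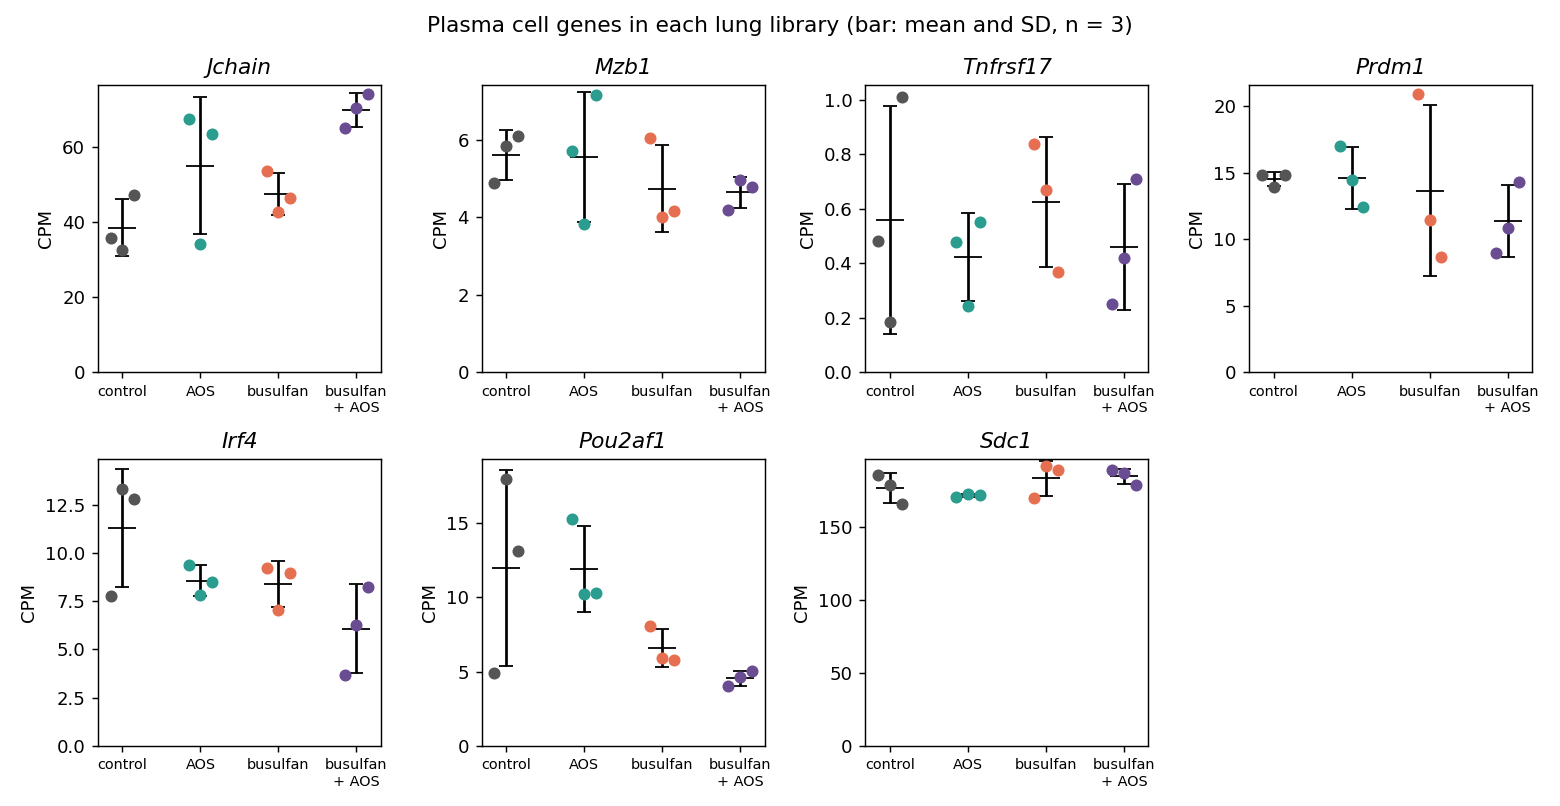
Level of each plasma cell gene in CPM (vertical axes, starting at 0, a separate scale per gene) in every library of the 4 groups; points are libraries, the horizontal bar is the mean and the error bar the SD (n = 3). The 3 busulfan + AOS libraries of Jchain lie between 65.0 and 73.9 CPM, above every control and busulfan library, while those of Pou2af1 lie between 4.01 and 5.01 CPM and Sdc1 is nearly level throughout.

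Jchain (Entrez gene 16069, chr5:88519809-88527897 on mm10) encodes the joining chain that links IgA and IgM molecules into polymers. It stood at 35.6, 32.6 and 47.0 CPM in the controls, 67.4, 34.0 and 63.3 CPM with AOS, 53.5, 42.6 and 46.2 CPM after busulfan, and 65.0, 70.4 and 73.9 CPM with busulfan + AOS. All 3 busulfan + AOS libraries were higher than every control and every busulfan library, and AOS replicate 2 was as low as the controls while the other AOS libraries were high. With 3 libraries per group other genes can part in this way too, and their share was not counted. Averaged over animals with and without AOS, 46.6 ± 15.4 CPM without busulfan stood against 58.6 ± 13 CPM with it (SD, n = 6 each), a log2 fold change of 0.33 (SE 0.16, 95% interval -0.03 to 0.68) that did not pass the test (edgeR's quasi-likelihood test, Benjamini-Hochberg adjusted p = 0.203). The lower end of that interval lies close to 0, and the median of the B cell genes (-1.51) lies outside it. Busulfan alone differed from control by 0.30 (SE 0.23, adjusted p = 0.507) and busulfan + AOS from AOS by 0.35 (SE 0.22, adjusted p = 0.421). The interaction between busulfan and AOS was 0.04 (SE 0.32, 95% interval -0.66 to 0.75, edgeR adjusted p = 0.997). In that contrast edgeR called 0 genes of any kind (0%), DESeq2 18, and 760 had an unadjusted p under 0.05. Where nothing differed, a share near 0.05 of all genes tested would fall there too.

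The contrast in which Jchain differed most was busulfan + AOS against control, where its mean was 69.8 ± 4.49 against 38.4 ± 7.6 CPM (SD, n = 3 each), 1.82-fold higher. On the log2 scale this was 0.86 (SE 0.23), and edgeR's adjusted p = 0.0605 missed the threshold of 0.05. In that contrast 4.08% of all genes tested were called and 0 of the 7 plasma cell genes. DESeq2 called 3 of the 7 there, Jchain higher and Irf4 and Pou2af1 lower, but it called 1390 genes in all against edgeR's 648. Without AOS replicate 2 edgeR called Jchain, among 385 genes. AOS by itself placed Jchain at 54.9 ± 18.2 CPM, a log2 fold change of 0.51 against control (SE 0.23, unadjusted p = 0.0446, edgeR adjusted p = 0.999). Busulfan + AOS exceeded busulfan by 0.56 (SE 0.22, unadjusted p = 0.0319, edgeR adjusted p = 0.769). Averaged over both backgrounds, a contrast added after the data were seen, the AOS difference of Jchain was 0.54 (SE 0.16, 95% interval 0.18 to 0.89), with an unadjusted p = 0.00677 that ranked 90 among 15863 genes and an edgeR adjusted p = 0.855. In each of these 3 AOS contrasts edgeR called 0 genes of any kind (0%), while 642, 1006 and 847 genes had an unadjusted p under 0.05. Where nothing differed, a share near 0.05 of the 15863 genes would fall there, so these counts do not by themselves show AOS differences. DESeq2 called 12 genes for AOS against control and 31 for busulfan + AOS against busulfan, and limma-voom called 0 and 0.

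Pou2af1 (Entrez gene 18985, chr9:51213690-51240079), whose product OCA-B works with Oct1 and Oct2 on octamer promoters such as those of immunoglobulin genes, was the member that fell. It stood at 4.88, 18.0 and 13.1 CPM in the controls, 15.3, 10.2 and 10.3 CPM with AOS, 8.07, 5.95 and 5.76 CPM after busulfan, and 4.01, 4.67 and 5.01 CPM with busulfan + AOS. Of the 6 libraries without busulfan, 5 lay above every library with busulfan, and the exception was control replicate 1. The share of all genes with such a split was not counted. In the busulfan average it fell by 1.12 on the log2 scale, to 0.459-fold (SE 0.27, 95% interval -1.72 to -0.53, edgeR adjusted p = 0.0256). It was thus 1 of 7 members called in a contrast where 11.8% of all genes were called, 7.02% as higher and 4.81% as lower (1114 and 763 genes, or 767 and 1092 with upper-quartile scaling). The call was near the threshold and was not made by limma-voom (-1.02, adjusted p = 0.0669). The log2 fold change was -1.31 without control replicate 1 (edgeR adjusted p = 0.00314), and the call ended without control replicate 2 (-0.92, 0.0548), AOS replicate 1 (-1.02, 0.0597), busulfan replicate 3 (-1.08, 0.0611) or busulfan + AOS replicate 1 (-1.08, 0.0552) or 2 (-1.13, 0.0577). Taken apart, busulfan against control gave -0.86 (SE 0.38, edgeR adjusted p = 0.256) and busulfan + AOS against AOS -1.39 (SE 0.39, edgeR adjusted p = 0.0794). In these contrasts 1.21% and 2.3% of all genes were called by edgeR, and 0 of the 7 plasma cell genes in either. For busulfan + AOS against AOS, Pou2af1 was called by DESeq2, and by edgeR with only the groups compared or without control replicate 1. DESeq2 called 1243 genes in that contrast, where edgeR's main fit called 365.

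Irf4 (Entrez gene 16364, chr13:30749233-30766981), the transcription factor that plasma cells need to form and survive, and which activated T cells, dendritic cells and macrophages also make, had values with less separation. The controls held 7.77, 13.3 and 12.8 CPM, the AOS libraries 9.39, 7.81 and 8.5 CPM, the busulfan libraries 9.21, 7.04 and 8.95 CPM, and the busulfan + AOS libraries 3.69, 6.28 and 8.25 CPM. The groups overlapped, with 3 of the 6 libraries given busulfan below every library without it. The busulfan average was -0.46 (SE 0.20, 95% interval -0.90 to -0.02, edgeR adjusted p = 0.152), and busulfan + AOS against control gave -0.89 (SE 0.28, edgeR adjusted p = 0.101). Prdm1 (Entrez gene 12142, chr10:44437174-44528558), which encodes Blimp-1, the repressor that ends the B cell programme, stood at 14.8, 13.9 and 14.8 CPM in the controls, 17, 14.4 and 12.4 CPM with AOS, 20.9, 11.4 and 8.64 CPM after busulfan, and 8.95, 10.8 and 14.3 CPM with busulfan + AOS. The busulfan group held both the highest and the lowest library, and the busulfan average of -0.22 (SE 0.20, 95% interval -0.67 to 0.22) did not pass (edgeR adjusted p = 0.491).

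Mzb1 (Entrez gene 69816, chr18:35647265-35650266) encodes a protein of the endoplasmic reticulum that helps antibody chains assemble, and is made by marginal zone B cells and plasmacytoid dendritic cells too. It stood at 4.88, 5.84 and 6.09 CPM in the controls, 5.71, 3.82 and 7.16 CPM with AOS, 6.04, 4.01 and 4.17 CPM after busulfan, and 4.19, 4.97 and 4.77 CPM with busulfan + AOS. The groups overlapped, and the busulfan average was -0.25 (SE 0.17, 95% interval -0.62 to 0.12, edgeR adjusted p = 0.35). Tnfrsf17 (Entrez gene 21935, chr16:11313232-11320074) encodes BCMA, the receptor through which APRIL and BAFF keep long-lived plasma cells alive. Its counts were 8, 3 and 17 in the controls, 8, 4 and 9 with AOS, 14, 11 and 6 after busulfan, and 4, 7 and 12 with busulfan + AOS. The groups overlapped throughout, and at this depth a busulfan average of 0.14 (SE 0.44, 95% interval -0.84 to 1.12) leaves a wide span of rises and falls undetectable. Its sign turned without control replicate 2 (-0.07) or busulfan + AOS replicate 3 (-0.08).

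Sdc1 (Entrez gene 20969, chr12:8771396-8793716) encodes syndecan-1 (CD138), used to sort plasma cells, and is also made by epithelium. It stood at 186, 179 and 166 CPM in the controls, 171, 173 and 172 CPM with AOS, 170, 192 and 189 CPM after busulfan, and 189, 187 and 179 CPM with busulfan + AOS. The libraries were close together, and the busulfan average was 0.08 (SE 0.04, 95% interval -0.01 to 0.17, edgeR adjusted p = 0.238). Of 13 alveolar epithelial markers 5 rose in the busulfan average and 0 fell (median log2 fold change 0.17), beside 7.02% of all genes called higher and 4.81% lower. Among the 5 was the tight junction gene Cldn18 at 0.48 (SE 0.07, edgeR adjusted p = 0.00326). Their summed level ran from 20200 to 25500 CPM in the controls, 21200 to 25400 with AOS, 24800 to 28900 after busulfan and 24000 to 25400 with busulfan + AOS. The count of 5 was 3 without control replicate 2. Their part in the Sdc1 values was not tested. Within groups, the deviations of Sdc1 from its group mean ran against those of each other member (Pearson r from -0.69 to -0.5 over 12 libraries, a description with no test, as for the correlations below).

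Set side by side, the 7 plasma cell genes had a median log2 fold change of -0.22 in the busulfan average, 3 of them positive and 4 negative, beside a median of -0.01 over all 15863 genes. B cell identity genes, a list of 20 that shares no gene with the 7, had a median of -1.51, and 17 of 20 fell with 0 rising. Among all genes 4.81% were called lower and 7.02% higher. The 3 not called were Bach2, Ebf1 and Cd72. In busulfan against control, busulfan + AOS against AOS and AOS against control, edgeR called 7, 9 and 0 of the 20 as lower. Over all genes 1.21%, 2.3% and 0% were called there. The median of the 20 was -1.43 for busulfan against control, -1.58 for busulfan + AOS against AOS and -0.32 for AOS against control. Their summed level was 222 to 448 CPM in the controls, 251 to 331 with AOS, 120 to 181 after busulfan and 93.7 to 146 with busulfan + AOS, so groups with and without busulfan did not overlap. Lower totals in whole lung can come from fewer cells of a type or from less RNA per cell, and bulk libraries cannot tell these apart.

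**Figure D2:**
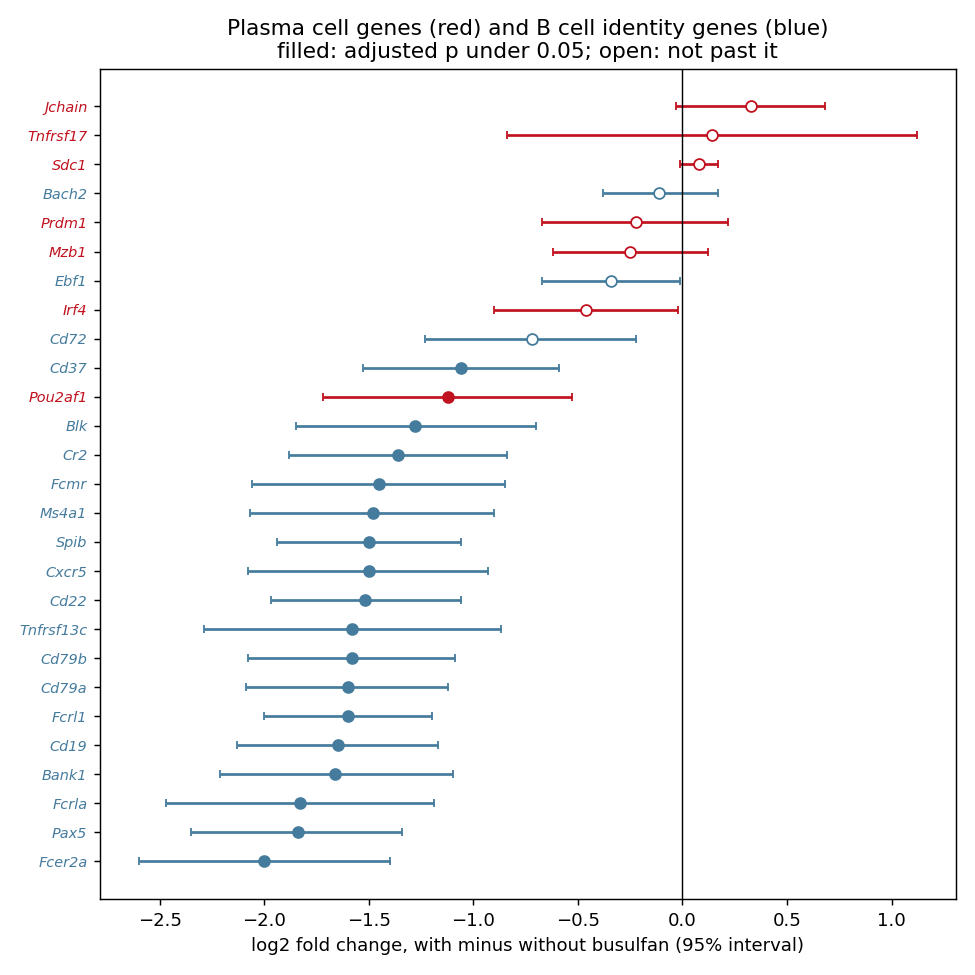
Log2 fold change with against without busulfan (horizontal axis; 6 libraries each) for the 7 plasma cell genes in red and 20 B cell identity genes in blue, with 95% intervals; filled points passed edgeR's adjusted p of 0.05. Of the plasma cell genes Pou2af1 alone is filled, at -1.12, and Jchain lies at 0.33, while 17 of 20 B cell genes are filled and all 20 lie below 0.

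To set each gene against the B cells of the same library, the mean log2 CPM of the 20 B cell genes was subtracted from its log2 CPM. This B cell level was 3.86 ± 0.56 in the controls, 3.60 ± 0.20 with AOS, 2.55 ± 0.33 after busulfan and 2.19 ± 0.34 with busulfan + AOS (SD, n = 3 each), and the lowest control was replicate 1 at 3.22. Jchain exceeded it by 1.94, 0.80 and 1.43 in the controls, by 2.31, 1.72 and 2.33 with AOS, by 2.88, 3.21 and 2.94 after busulfan, and by 4.20, 3.88 and 3.71 with busulfan + AOS. All 6 libraries given busulfan lay above all 6 without it. The mean difference was 1.72 on the log2 scale, 3.28-fold (exact permutation test within AOS strata, two-sided p = 0.005, the smallest that 400 arrangements can give), and it was 1.85 without control replicate 1 and 1.57 without control replicate 2. Because the B cell level itself was lower with busulfan, nearly any gene moves up on this scale: limma called 93.7% of all 15863 genes and 6 of the 7 members, and the median over all genes was 1.34. The count of 6 is therefore no more than the background. The separation of the Jchain libraries and its permutation p likewise hold that background shift. Its 95% interval on this scale, 1.23 to 2.20, takes in the all-gene median, so neither marks Jchain out from other genes.

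Pou2af1 was the member not called on this scale. Relative to the B cell level it stood at -0.90, -0.05 and -0.40 in the controls, 0.18, -0.01 and -0.28 with AOS, 0.17, 0.40 and -0.04 after busulfan, and 0.22, 0.00 and -0.14 with busulfan + AOS. The highest control (-0.05) lay just below the lowest busulfan library (-0.04), and the AOS and busulfan + AOS libraries overlapped. The busulfan average was 0.34 (SE 0.26, 95% interval -0.18 to 0.87, limma adjusted p = 0.202), which does not show that it moved exactly with the B cell genes. Irf4 stood between -0.55 and -0.24 in the 6 libraries without busulfan and between 0.11 and 0.64 in the 6 with it. These ranges did not overlap, with a difference of 0.88 (SE 0.25, limma adjusted p = 0.00151). For Mzb1 the difference was 1.12 (SE 0.28, limma adjusted p = 0.000377), with -1.65 to -0.80 without busulfan and -0.49 to 0.28 with it. Limma called 93.7% of all genes on this scale, so neither these splits nor these p-values mark Irf4 or Mzb1 out from other genes. The difference of Jchain, 1.72 (SE 0.24, 95% interval 1.23 to 2.20), was above the all-gene median of 1.34, as were those of Tnfrsf17 (1.53) and Sdc1 (1.43), and those of Irf4, Mzb1, Prdm1 (1.08) and Pou2af1 were below it. Among the members only the 95% interval of Pou2af1 left this median out.

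**Figure D3:**
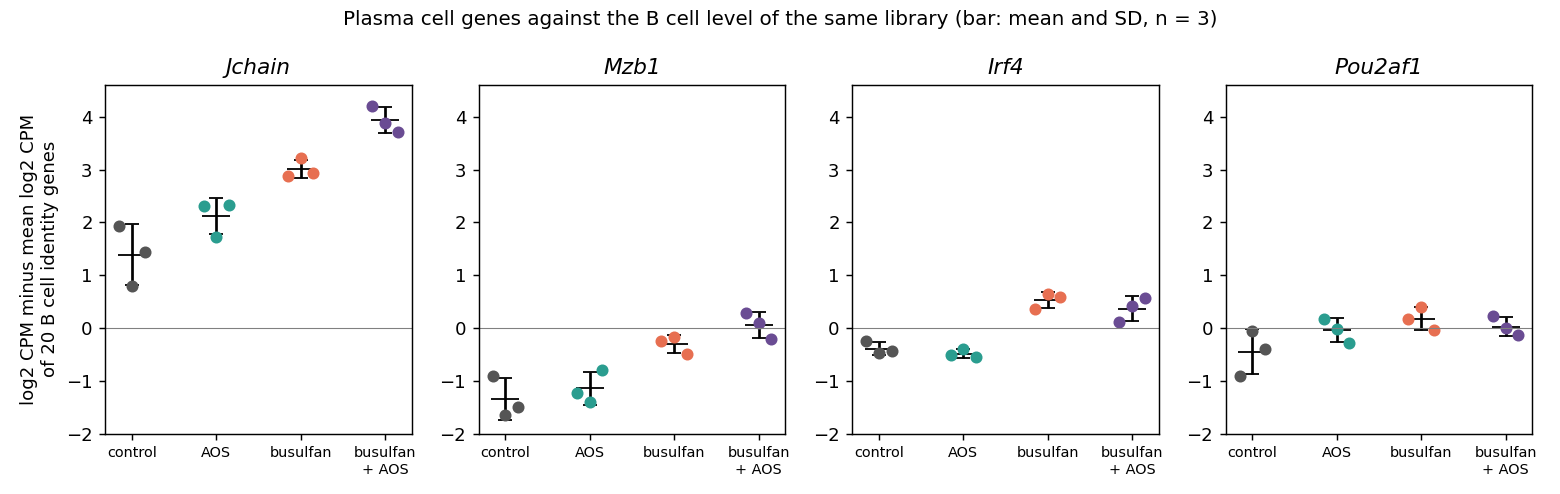
Log2 CPM of Jchain, Mzb1, Irf4 and Pou2af1 minus the mean log2 CPM of 20 B cell identity genes in the same library (vertical axis) in the 4 groups; points are libraries, bars the mean and SD (n = 3). Jchain lies between 0.80 and 2.33 without busulfan and between 2.88 and 4.20 with it, while Pou2af1 stays between -0.90 and 0.40 in all 12 libraries. The B cell level itself was lower with busulfan, so nearly any gene moves up on this scale.

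The genes whose profile over the 12 libraries was most like that of each member, out of the genes tested, differed between the members. For Pou2af1 the nearest were Ms4a1 (Pearson r of log2 CPM 0.943), Cd79b (0.921) and Spib (0.920), which encode the B cell surface protein CD20, a partner chain of the antigen receptor and a B cell transcription factor. All 3 are on the B cell list. Ms4a1 stood at 12.5, 38.2 and 26.4 CPM in the controls and at 4.26, 6.82 and 8.54 CPM with busulfan + AOS, low in control replicate 1 as Pou2af1 was. The nearest profiles to Jchain were Acap3 (0.883), Ggt7 (0.849) and Slc18b1 (0.809), to Mzb1 Sec22c (0.920), H2-Eb2 (0.850) and Lrrn3 (0.846), and to Irf4 Hectd3 (0.944), Il16 (0.933) and Map4k1 (0.927). Those of Prdm1 were Tbc1d17 (0.923), Cdk5rap3 (0.914) and Scly (0.912), and those of Sdc1 Dyrk1a (0.928), Slc15a4 (0.912) and Mal (0.885). Tnfrsf17, with its low counts, was nearest to Tcf24 (0.858), Vsp35l (0.858) and Shisal1 (0.852).

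When the group means were removed, so that libraries were compared with others of the same treatment, Irf4 was nearest to Prkcb (r = 0.980), Cd79a (0.970) and Fcmr (0.962), of which the last pair is on the B cell list. Pou2af1 was nearest to Ms4a1 (0.932), Elovl4 (0.920) and Oxsr1 (0.917). Jchain was nearest to Dirc2 (0.930), Grin3a (0.907) and Acd (0.887), and Mzb1 to Palmd (0.926), Gimap3 (0.909) and Sec22c (0.906). Among the members, the deviations of Jchain and Mzb1 had r = 0.80 and rho = 0.76 (r = 0.73 without the 2 farthest libraries), and those of Jchain and Tnfrsf17 r = 0.70 and rho = 0.75 (0.81). Irf4 and Pou2af1 had r = 0.70 and rho = 0.81 (0.58), whereas Jchain and Pou2af1 had r = 0.26 and rho = 0.38 (0.12). All values rest on the same 12 libraries and their shared depth. The nearest genes are the highest r picked from the 15863 tested, so high values come in part from that choice. Removing the group means also leaves fewer free values than 12.

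Of 20 other genes known from plasma cells, 2 rose and 3 fell in the busulfan average, with a median log2 fold change of 0, beside the 11.8% called over all genes. Xbp1, the transcription factor that builds the secretory apparatus, ran from 158 to 180 CPM without busulfan (median 172) and from 204 to 275 CPM with it (median 238). The 2 sets of libraries did not overlap, and Xbp1 rose by 0.48 (SE 0.07, edgeR adjusted p = 0.00312). Creb3l2, a factor of the same secretory programme, rose by 0.24 (SE 0.06, adjusted p = 0.0206). Its adjusted p reached 0.0555 and missed the threshold when control replicate 1 or 2, AOS replicate 1 or busulfan + AOS replicate 2 was left out. Cd27, a surface receptor of memory B cells, plasma cells and T cells, fell by 0.90 (SE 0.15, edgeR adjusted p = 0.00616). It ran from 4.47 to 6.09 CPM without busulfan and from 2.08 to 3.41 CPM with it, again with no overlap. The share of all genes with such a split was not counted, so it does not mark out Xbp1 or Cd27. Tnfrsf13b, which encodes TACI, a receptor for BAFF and APRIL on B cells and plasma cells, ran from 7.87 to 12.5 CPM without busulfan and from 2.69 to 6.52 CPM with it, and fell by 1.10 (SE 0.19, adjusted p = 0.00744). Glcci1 fell by 0.31 (SE 0.07, adjusted p = 0.024) and missed the threshold (adjusted p up to 0.0545) when AOS replicate 2 or busulfan replicate 3 was left out.

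The rise of Xbp1 stood beside that of the unfolded protein response, the programme by which cells of any kind enlarge their folding capacity. Of 17 genes on that list 16 rose and 0 fell, with a median of 0.62, beside 7.02% of all genes called higher and 4.81% lower. Their summed level was 3970 to 4180 CPM without busulfan and 5210 to 7290 CPM with it. The chaperone gene Hspa5 rose by 1.02 and the secreted factor gene Manf by 0.98. Their part in the Xbp1 value was not tested.

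Genes of the surroundings that hold and feed plasma cells, and of the passage of IgA into the airway, were mixed. Of 12 on the list 10 were tested, of which 1 rose and 2 fell, with a median of -0.41. Over all genes 7.02% were called higher and 4.81% lower. Tnfsf13b, the gene of the survival factor BAFF, ran from 20.1 to 28.3 CPM without busulfan (median 22.1) and from 25.6 to 39.5 CPM with it, overlapping through AOS replicate 2 and busulfan replicate 1, and rose by 0.47 (SE 0.09, edgeR adjusted p = 0.011). Cxcl12, the chemokine that draws plasma cells to stromal niches, ran from 233 to 338 CPM without busulfan and from 192 to 233 CPM with it, the 2 sets meeting at 233, and fell by 0.46 (SE 0.10, edgeR adjusted p = 0.0163). The other that fell was Tnfrsf13b, which is on both lists. Cxcr4, the receptor of Cxcl12, had -0.36 (SE 0.11, edgeR adjusted p = 0.0562), Tnfsf13, the gene of APRIL, -0.24 (SE 0.09, adjusted p = 0.0984), and Pigr -0.59 (SE 0.34, adjusted p = 0.273), none of which passed.

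**Figure D4:**
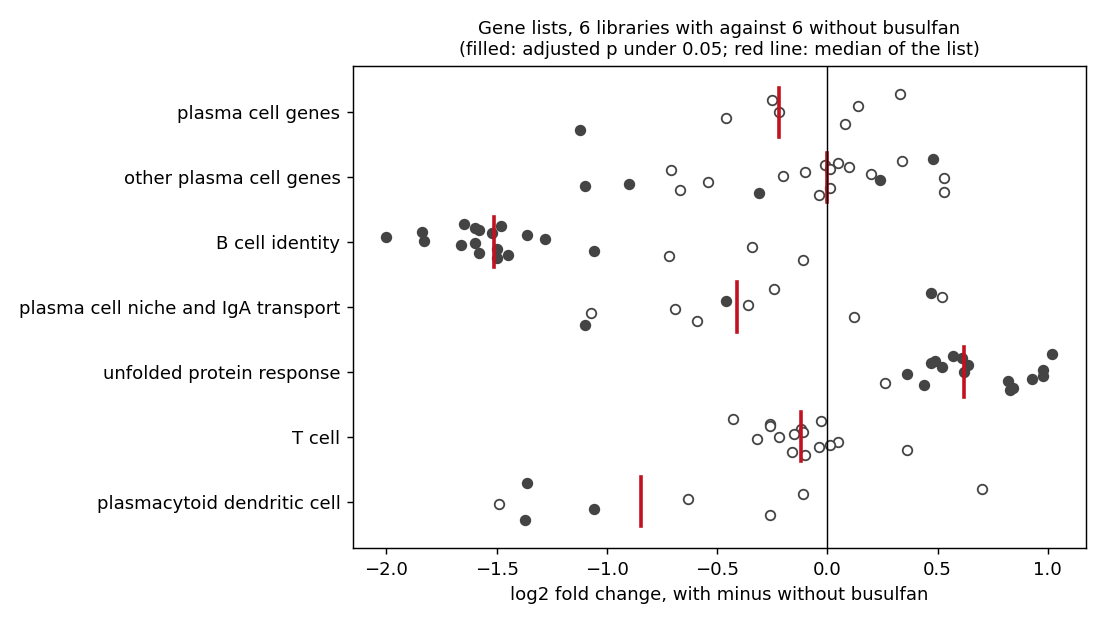
Log2 fold change with against without busulfan (horizontal axis; 6 libraries each) for every tested gene of 7 lists (rows); filled points passed edgeR's adjusted p of 0.05 and the red line is the median of the list. The plasma cell genes centre on -0.22 and the 20 other plasma cell genes on 0, the B cell genes on -1.51 and the unfolded protein response genes on 0.62.

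Markers of other cells that share these genes were counted as well, in the busulfan average, where 7.02% of all genes were called higher and 4.81% lower. Of 15 T cell genes 0 were called (median -0.12, summed level 90.3 to 152 CPM over all libraries), and edgeR called 1 higher and 1 lower of 11 conventional dendritic cell genes (median -0.29), Fscn1 at 0.76 and Ccr7 at -1.27. On that list 2 rose without busulfan replicate 2, and 2 fell without busulfan replicate 3. Of 8 plasmacytoid dendritic cell genes 3 fell and 0 rose (median -0.84): Siglech by 1.36, Ly6d by 1.37 and Pacsin1 by 1.06. The summed level of the 8 overlapped between groups, at 288 to 332 CPM in the controls, 251 to 373 with AOS, 290 to 326 after busulfan and 273 to 442 with busulfan + AOS. Most of that sum was Tcf4 (mean 197 CPM without and 182 with busulfan) and Bst2 (70.9 and 117), so it says little of the 3 that fell. Of the 8 genes 7 had a negative log2 fold change, and Bst2 was the exception. Of 12 macrophage genes 1 rose, Marco by 1.13, which missed the threshold when control replicate 1, AOS replicate 1 or busulfan + AOS replicate 2 was left out. Of 10 airway genes tested edgeR called 0, with a median of -0.52, and 2 without busulfan replicate 2. Of 5 germinal centre genes tested, out of 8 on the list, Mybl1 (0.52) and Fas (0.29) rose, calls that 2 and 3 of the 12 fits leaving out a library kept. The part of these cells in the values of Mzb1, Irf4 and Prdm1 was not tested.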

How the data were processed

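RNA sequencing of mouse lung was analysed from 1 table that the authors deposited for the whole series, with 3 libraries in each of 4 groups named from the sample titles. It holds estimated counts per gene as deposited by the authors, not normalised, of which 75.9 to 77.1% per library were whole within 0.005, and FPKM values that the authors also deposited. The headers do not name FPKM: that unit was read from the values, which gave 1 fixed length per gene (coefficient of variation 0.733% in the median of 12312 genes). Per the submitters' processing notes the build was mm10. The aligner and counting program, and any use of strand, are not given in the sources used. By the RefSeq annotation 0 annotated genes overlap any of the 7 members.

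Counts were rounded, filtered with filterByExpr, scaled by TMM (factors 0.963 to 1.03) and fitted over all 12 libraries with edgeR 4.0.16 in R 4.3.3, with Benjamini-Hochberg adjustment over 15863 genes and calls at an adjusted p under 0.05. CPM uses these factors. Values minus the B cell level used log2 CPM (prior count 2) and limma 3.58.1, with an exact permutation test for Jchain. Alternatives were DESeq2 1.42.0, limma-voom, other scalings and filters, fits to only the groups in question, a replicate block, an airway covariate and leaving out each library. Scripts were tested on simulated data. Promoters came from RefSeq on GRCm38.p6 and figures from Python 3.11.15 with matplotlib 3.10.9. Library totals were 16209221 to 17168764 counts, and 3 counts, the floor that a count of 0 allows, equal 0.177 to 0.188 CPM, for counting error only. No pair of replicates was close to sampling noise: chi-square over its degrees of freedom was 17.5 to 38.7 in the 12 pairs.

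Members and gene lists were chosen with earlier results of these data known. Named genes were all 7 members, up to 4 per list with the smallest p in the busulfan average, and the 3 profiles most like each member. Glcci1, Cxcr4, Tnfsf13, Pigr, Bach2, Ebf1 and Cd72 were named after their values were seen. The busulfan average is the mean of busulfan against control and busulfan + AOS against AOS. Wherever libraries are said not to overlap, the share of all genes with such a split was not counted.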

Additional observations from a re-analysis of the deposited data

How the results depend on the processing

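Across up to 21 alternatives, the number of the 7 plasma cell genes called stayed 0 for busulfan against control, AOS against control, busulfan + AOS against busulfan, the interaction and the AOS average. In the busulfan average the count of 1 (Pou2af1) became 0 with limma-voom (log2 fold change -1.02, adjusted p = 0.0669) and with the replicate block (-1.11, 0.0558), and ran from 0 to 1 when each library was left out. For busulfan + AOS against AOS the count of 0 became 1, Pou2af1, with DESeq2 and with only the groups compared, and ran from 0 to 1 with each library left out. For busulfan + AOS against control it became 3 with DESeq2 (Jchain, Irf4 and Pou2af1) and 1 with the airway covariate (Irf4). With each library left out it ran from 0 to 1. Over all genes DESeq2 called 1390 in that contrast against 648 in the main fit, and 1243 against 365 for busulfan + AOS against AOS. The airway covariate fit called 799 for busulfan + AOS against control. The cause of these shifts was not tested. Same-numbered libraries did not deviate together (r from -0.253 to 0.181, over 0.1 in 2 of 18 pairs), so the block pairs libraries by number only. Tnfrsf17 (0.14) ranged from -0.08 to 0.51 with each library left out, reversing to -0.07 without control replicate 2 and -0.08 without busulfan + AOS replicate 3, and was filtered out at a minimum of 1 CPM. The busulfan average kept its sign for Jchain (0.20 to 0.41), Mzb1 (-0.35 to -0.14), Irf4 (-0.61 to -0.33), Prdm1 (-0.44 to -0.10), Sdc1 (0.04 to 0.11) and Pou2af1 (-1.31 to -0.92). Jchain minus the B cell level ran from 1.57 to 1.91 over 18 alternatives, with exact permutation p of 0.005 to 0.0312. The latter came with the replicate block and is the smallest that its fewer arrangements can give, so this range does not measure stability. The count of 6 members called against the B cell level stayed 6 in those 18. The 17 B cell genes that fell in the busulfan average were 17 to 19 over the alternatives. For busulfan against control their count of 7 became 0 with only the groups compared. For busulfan + AOS against AOS their count of 9 became 0 without AOS replicate 1. All-gene calls in the busulfan average ranged from 1079 (without control replicate 2) to 2661 (DESeq2). With 3 to 17 counts per library, depth limits Tnfrsf17 most.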
